A study of Mus musculus with 283 samples.

Results

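The libraries described here come from p53-2336R mammary tumours collected 3 days into combined checkpoint therapy, and from untreated tumours of the same model. They were chosen by their labels alone, as the tumour libraries with model p53-2336R and time 3 day. Of the 264 tumour and gland libraries in the expression table, and of 283 samples in the series, 8 met this rule. The tested arm, therapy Pd1.CTLA4, had 5 libraries, and the arm with therapy no had 3. Per the labels' protocols, tumours of both arms grew orthotopically in syngeneic hosts and mice were randomised when tumours measured 5 mm across. Treated mice were injected into the peritoneum, in 100 ul, with an antibody to CTLA4 at 125 ug and one to PD1 at 10 mg/kg. The labels class p53-2336R as resistant to this therapy and give no genotype beyond the model's name, no age and no sex. All 8 libraries are of 1 tumour model, so they do not stand for other resistant tumours. The table's header calls the 3 untreated tumours pretreatment, while their labels say 3 day, so therapy and days since randomisation cannot be told apart. The labels of these libraries carry no mouse numbers, so p-values measure the spread between libraries, which may in part be technical. The comparison asks what combined blockade had done to the transcriptome of a resistant tumour by 3 days.

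PD1, encoded by Pdcd1, and CTLA4 are inhibitory receptors that T cells display after they have been activated. CTLA4 competes with the costimulatory receptor CD28 for its ligands on antigen-presenting cells, and PD1 dampens signalling close to the T cell receptor when it meets its ligand PD-L1, the product of Cd274. T cells released from these brakes can secrete interferon gamma, which acts on tumour and host cells. Its targets include guanylate-binding proteins, immunity-related GTPases, the chemokines Cxcl9 and Cxcl10, and the machinery that loads peptides on MHC molecules. In a bulk tumour library, more cells of a type and more RNA per cell cannot be told apart.

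Values below are log2(signal + 1), where signal is the authors' gene-level value scaled to the same upper quartile in every library, and a difference of 1 is a doubling. Libraries are numbered 1 to 5 (treated) and 1 to 3 (untreated), in an order without meaning. Estimated depth was 11.82 to 57.22 M reads in treated libraries, with library 2 the shallowest, and 55.65 to 66.99 M reads in untreated ones. Between 19278 and 22746 genes were above 0 in treated libraries and between 22314 and 22857 in untreated ones. All 8 came from 1 flow cell, and 2 of its lanes held both arms. Lane 3 held treated library 3 and untreated library 3, and lane 5 held the shallow treated library 2 and untreated library 1. A difference within a lane is thus 1 treated library against 1 untreated library, without replicates. Epithelial markers were present throughout: Krt5, a basal keratin, was at 15.32 to 15.89 in treated and 15.47 to 16.01 in untreated libraries, and Epcam at 13.74 to 14.11 in treated and 13.94 to 14.02 in untreated libraries. Trp53 was at 12.18 to 13.01 in treated and 12.66 to 12.77 in untreated libraries, within or near the 11.97 to 12.99 of BALB/c normal glands. A gene-level value cannot show whether an allele is null.

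A pair of treated libraries stood apart on the high side. Among 13551 genes with a mean above 6, treated library 1 held 131 genes more than 2 log2 units above the median of the other libraries, 5 of them on the skeletal muscle list. Treated library 4 held 84 such genes, of which 19 were on the interferon gamma list, 9 on the MHC class I list and 5 on the MHC class II list. The other 6 libraries held 0 to 14. The values of the lists and genes that were highest in library 4 are therefore given without it too where that moved them most. On the low side, treated library 5 held 44 genes more than 2 log2 units below the median of the other libraries. The rest held 4 to 12 such genes.

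Across the transcriptome no gene passed the test. With limma and Benjamini-Hochberg adjustment over 18043 genes, 0 were called (0%), and the smallest adjusted p was 1. Without adjustment 74 genes had p under 0.05, which is 0.41% of those tested, 42 of them higher in treated tumours (0.233%) and 32 lower (0.177%). The spread in this test was shared by 39 libraries in 10 groups of resistant tumours at 3 days. With the spread of these 8 libraries alone, 331 of 14679 genes had an unadjusted p under 0.05 (2.25%), and again 0 were called. Both shares lie below what chance alone gives on average at that threshold for independent genes. The counts of 0 therefore do not show that nothing changed, and the cause of the low shares was not tested. Every treated library lay above every untreated one for 82 genes (0.454%), and below for 572 (3.17%). The median difference over all genes was -0.09, and 4881 of 18043 genes had a positive one, so a list of genes with mostly positive values runs against the bulk of the table. Nothing below passed adjustment, and values are given as measured.

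Genes of T cells had the highest median difference of the 52 lists. Of 16 members of the T cell receptor and T cell identity list, 15 had a positive difference, with a median of 1.13 against -0.09 over all genes. The mean level of the list was 5.48, 5.77, 5.11, 7.75 and 4.99 in treated libraries 1 to 5, against 4.96, 4.37 and 4.82 in untreated libraries 1 to 3. The arms did not overlap, though treated library 5 and untreated library 1 nearly touched. Within lanes, with 1 library of each arm, the list's level differed by 0.29 in lane 3 and 0.81 in lane 5. With lane as a term, which rests on the same libraries of lanes 3 and 5, the median was 0.61. When the 8 libraries alone set the filter on low values, 6 of the 16 members were tested, with a median of 0.64. With library 4 left out as well, 4 were tested, 2 of them positive, with a median of 0.09. Zap70, Cd3d and Cd3e were among the members that filter left out. It also left out Pdcd1 and Ctla4, so their tests below rest on the filter over 39 libraries. Of the 16 genes, 6 had a positive difference with an unadjusted p under 0.05, against 0.233% of all genes, and 3 of 16 separated the arms, against 0.454%.

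Pdcd1, the gene of the receptor that anti-PD1 blocks, lies at chr1:94038305-94052553 on the minus strand of GRCm38. It was at 3.90, 4.23, 3.43, 6.47 and 3.11 in treated libraries, against 2.16, 1.94 and 2.31 in untreated ones. All 5 treated tumours were above all 3 untreated tumours, which sat within 0.19 (SD) of their mean. Apart from treated library 4, these levels stand for few reads per library. Each read also weighs more in the shallow treated library 2, so the gap between the arms depends on depth scaling. The difference was 2.09 ± 0.65 (SE), with a 95% interval of 0.76 to 3.42 and an unadjusted p of 0.003. Pdcd1 had the smallest p of the genes the naming rule could take in either direction, and its adjusted p was still 1. In the lanes that held both arms the difference was 1.12 in lane 3 and 2.08 in lane 5. Not all T cell genes were positive in both lanes: Cd28 differed by -0.10 in lane 3 and 1.19 in lane 5, and Cd3d by 0.38 in lane 3 and 1.10 in lane 5. Leaving out library 4 gave 1.53 ± 0.61 and an unadjusted p of 0.0167.

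Zap70, the kinase that relays the T cell receptor signal, was at 4.68, 5.20, 4.56, 7.02 and 4.65 in treated libraries, against 3.80, 3.63 and 3.50 in untreated ones. Its lowest treated value, 4.56, lay above its highest untreated value, 3.80. The untreated SD of 0.15 comes from 3 libraries, and outside treated library 4 these levels stand for few reads. The difference was 1.58 ± 0.53, with an unadjusted p of 0.0056, and 1.13 ± 0.50 without library 4. Cd3d and Cd3e encode signalling chains of the same receptor complex. Cd3d was at 4.34, 4.23, 3.88, 6.70 and 3.64 in treated libraries, against 3.13, 1.94 and 3.50 in untreated ones. Cd3e was at 4.09, 4.23, 4.30, 7.41 and 4.13 in treated libraries, against 3.71, 2.93 and 3.77 in untreated ones. Both separated the arms, by small gaps apart from library 4, and outside it their levels, too, stand for few reads. Without it the differences were 1.17 ± 0.67 for Cd3d and 0.72 ± 0.56 for Cd3e.

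Ctla4, the other antibody target, was at 4.00, 4.48, 3.43, 7.08 and 3.31 in treated libraries, against 3.13, 2.52 and 2.31 in untreated ones. The arms again did not overlap, and the difference was 1.81 ± 0.80, and 1.15 ± 0.76 without library 4. Outside library 4 the levels of Ctla4, too, stand for few reads. Cd28, the costimulatory receptor, was at 5.18, 4.70, 3.97, 6.45 and 3.64 in treated libraries, against 3.51, 0.96 and 4.07 in untreated ones. Here untreated library 2 was far below the other libraries and the arms overlapped. Cd6, a T cell surface receptor, differed by 1.78 ± 0.70, with arms that overlapped. Thy1, which fibroblasts also express, was the single member of the list with a negative difference, at 12.40 to 12.72 in treated and 12.29 to 12.81 in untreated libraries. The checkpoint list as a whole was less shifted, with a median of 0.30 over 13 members. Cd274 was at 5.70 to 9.23 in treated and 5.56 to 6.77 in untreated libraries, with overlapping arms, and its difference was 0.84 ± 0.62, and 0.27 ± 0.57 without library 4. Pdcd1lg2, which encodes the second PD1 ligand, averaged 2.87 ± 1.23 in treated libraries and 2.95 ± 0.44 in untreated ones.

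**Figure D1:**
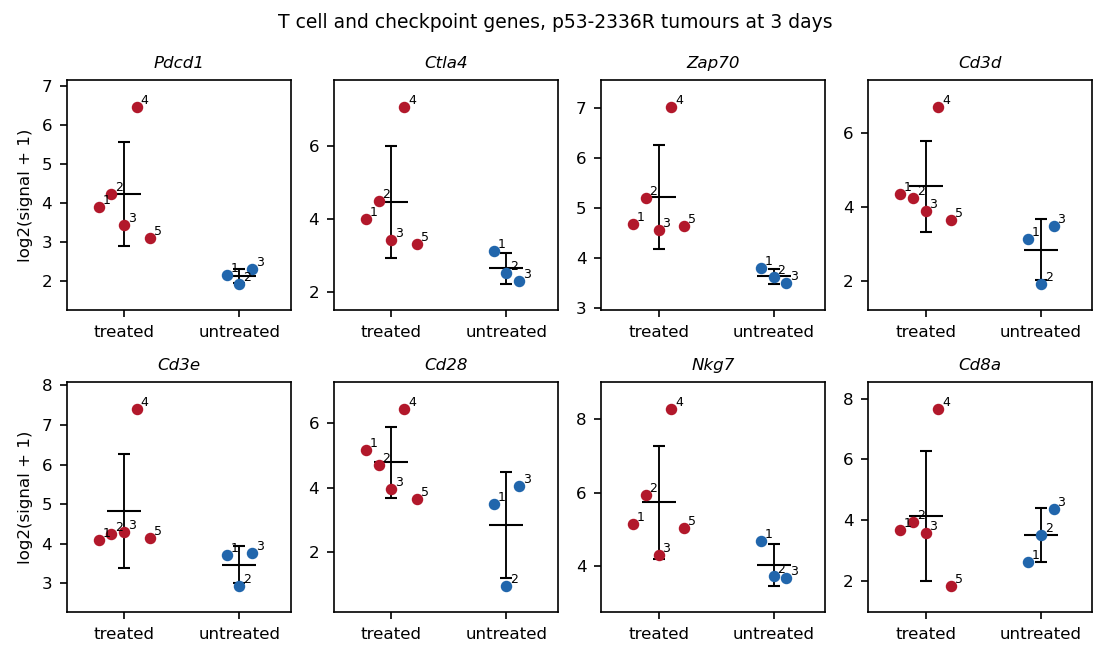
Levels of 8 T cell and checkpoint genes, as log2(signal + 1), in treated (red, left) and untreated (blue, right) p53-2336R tumours at 3 days. Each point is a library with its number, and bars show the mean and SD of 5 treated and 3 untreated libraries. Pdcd1, Ctla4, Zap70, Cd3d and Cd3e separate the arms, treated library 4 is the highest point in each panel, and Cd8a overlaps.

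The cytotoxic and natural killer lists leaned the same way with less separation. Of 12 tested members of the CD8 and cytotoxicity list, 11 had a positive difference, with a median of 1.02, and all 9 tested natural killer genes were positive, with a median of 1.10. In lane 3 the mean level differed by 0.24 for the cytotoxicity list and by -0.01 for the natural killer list, and in lane 5 by 0.32 and 0.62. Eomes and Tbx21 encode the T-box factors that direct cytotoxic differentiation. Eomes was at 4.26, 4.23, 3.30, 6.67 and 4.02 in treated libraries, against 3.71, 2.93 and 2.31 in untreated ones. Tbx21 was at 4.80, 4.70, 3.97, 6.63 and 3.91 in treated libraries, against 3.71, 3.10 and 3.69 in untreated ones. Only Tbx21 of the 12 separated the arms, by a narrow gap. Outside library 4 the levels of Eomes and Tbx21 stand for few reads. Nkg7, a granule protein of killer cells, was at 5.14, 5.94, 4.30, 8.28 and 5.04 in treated libraries, against 4.70, 3.73 and 3.69 in untreated ones, and its arms overlapped at 1 library each. Without library 4 the differences were 0.97 ± 0.48 for Eomes, 0.84 ± 0.59 for Tbx21 and 1.06 ± 0.64 for Nkg7.

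The genes that define CD8 T cells and their weapons overlapped between the arms. Cd8a, the CD8 co-receptor, was at 3.68, 3.93, 3.56, 7.67 and 1.83 in treated libraries, against 2.63, 3.51 and 4.38 in untreated ones. Its lowest value of all was a treated one, and its difference of 0.63 ± 0.98 became -0.26 ± 0.90 without library 4. Gzmb, which encodes granzyme B, was at 2.61 to 6.87 in treated and 2.26 to 3.80 in untreated libraries, and its difference was 0.77 ± 0.86, and 0.05 ± 0.81 without library 4. Ifng, the gene of interferon gamma itself, fell under the filter on low values and was not tested. It was at 2.40, 3.02, 0.99, 5.56 and 0 in treated libraries, against 2.41, 0.96 and 0 in untreated ones. Foxp3, the factor of regulatory T cells, averaged 5.50 ± 1.33 in treated libraries and 4.48 ± 0.26 in untreated ones, with an unadjusted p of 0.0649, and the difference was 1.02 ± 0.53, and 0.55 ± 0.49 without library 4.

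Interferon gamma targets showed a different layout, in which a single library set most of the median. Of 25 members, 24 had a positive difference and 0 had an unadjusted p under 0.05. The median was 0.92, and 0.18 without library 4. Its mean level differed by -0.14 in lane 3 and by 0.42 in lane 5. The list's mean level was 8.61, 8.95, 7.78, 11.80 and 6.88 in treated libraries, against 8.53, 7.18 and 7.91 in untreated ones. Treated library 5 was the lowest of all 8 and library 4 the highest, with the untreated libraries between them. Tgtp1, a T cell-specific GTPase gene with near-identical copies among which reads may be split, was at 9.42, 10.76, 7.70, 14.18 and 7.32 in treated libraries, against 9.44, 7.42 and 8.09 in untreated ones. Cxcl9, a chemokine that draws T cells, was at 9.87, 9.50, 8.21, 12.74 and 5.90 in treated libraries, against 9.62, 6.93 and 8.02 in untreated ones. The difference of Cxcl9 was 1.06 ± 1.03, and 0.18 ± 0.95 without library 4. The levels of Cxcl9 ran from the lowest to the highest of the 8 libraries within the treated arm.

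Regions directly before the starts of 5 of these genes are shown as examples of promoters that hold these motifs, from genes that were highest in treated library 4. They were picked from the list members with the motif, and Ubd, Cxcl9 and Psmb9, which stood 7.01, 4.53 and 3.49 above the median of the other libraries there, held neither motif in the searched window. Interferon acts through known letters in such regions. The gamma-activated site was searched as TTCNNNGAA, and interferon regulatory factors bind the interferon-stimulated response element, whose core was searched as a pair of GAAA blocks with 2 bases between them. Both strands were searched. Each line gives 120 bases before the start in the RefSeq table of GRCm38.p6, with matches in capitals. Tgtp1 lies at chr11:48992247-48992366 on the minus strand, Igtp at chr11:58199436-58199555, Irgm2 at chr11:58214857-58214976, Gbp7 at chr3:142530216-142530335 and Irf1 at chr11:53769894-53770013, all 4 on the plus strand.
Tgtp1: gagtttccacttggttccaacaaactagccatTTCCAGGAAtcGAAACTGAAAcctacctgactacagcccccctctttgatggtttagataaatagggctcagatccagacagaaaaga
Igtp: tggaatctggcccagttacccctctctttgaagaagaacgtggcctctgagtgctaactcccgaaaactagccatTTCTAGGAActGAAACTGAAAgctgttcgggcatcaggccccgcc
Irgm2: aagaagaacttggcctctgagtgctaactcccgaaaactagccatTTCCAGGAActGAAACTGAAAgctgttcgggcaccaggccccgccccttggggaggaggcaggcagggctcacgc
Gbp7: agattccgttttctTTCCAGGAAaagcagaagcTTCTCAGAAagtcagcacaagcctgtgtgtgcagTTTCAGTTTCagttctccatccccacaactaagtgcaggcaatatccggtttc
Irf1: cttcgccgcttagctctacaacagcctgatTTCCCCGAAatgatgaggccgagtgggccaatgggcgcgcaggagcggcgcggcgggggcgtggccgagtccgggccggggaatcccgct

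In Tgtp1, Igtp and Irgm2, GTPase genes of 1 family, the 2 motifs stand side by side with 2 bases between them. The shared letters around them are those of related gene copies, so these 3 are not independent cases. Gbp7, a guanylate-binding protein gene, holds a pair of the first motif and the second motif on the opposite strand, and Irf1, itself a transcription factor gene, holds the first alone, while a second start of Irf1 in the table holds neither. Within 250 bases before the start, 7 of 16 list members with an entry held TTCNNNGAA (43.8%), against 2197 of 27025 genes in the table (8.13%). The paired GAAA core was found in 10 of 16 (62.5%), against 936 of 27025 (3.46%). In the T cell list 1 of 8 held the first and 0 of 8 the second. In treated library 4 these genes stood above the median of the other 7 libraries by 6.09 for Tgtp1, 4.64 for Igtp, 4.01 for Irgm2, 2.81 for Gbp7 and 1.93 for Irf1. The list was drawn up from known interferon targets, so the share of motifs in it is a description and not a test.

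The 15 genes of MHC class I presentation all had a positive difference, with a median of 0.67, and 0.14 without library 4. H2-K1 and H2-D1 encode the classical class I heavy chains, whose similar sequences can share reads. H2-K1 was at 13.16, 13.32, 12.82, 15.34 and 12.81 in treated libraries, against 12.62, 12.45 and 12.52 in untreated ones. Each treated library was above each untreated one, and the untreated values lay within 0.09 (SD) of their mean. The difference was 0.97 ± 0.47, with an unadjusted p of 0.05, and 0.50 ± 0.42 without library 4, with an unadjusted p of 0.24. H2-D1 was at 13.40, 13.63, 13.13, 15.53 and 13.07 in treated libraries, against 12.95, 12.70 and 12.91 in untreated ones, also without overlap, and differed by 0.90 ± 0.50, and by 0.45 ± 0.46 without library 4. The class I list's mean level differed by 0.02 in lane 3 and 0.30 in lane 5. Psmb10, a subunit of the immunoproteasome, also separated the arms. B2m, the light chain, averaged 14.01 ± 1.03 in treated libraries and 13.31 ± 0.15 in untreated ones, with overlap at treated library 5, and differed by 0.69 ± 0.41, and by 0.25 ± 0.34 without library 4. The 11 class II genes were all positive as well, with a median of 0.62, and 0.08 without library 4, and 0 of them separated the arms.

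**Figure D2:**
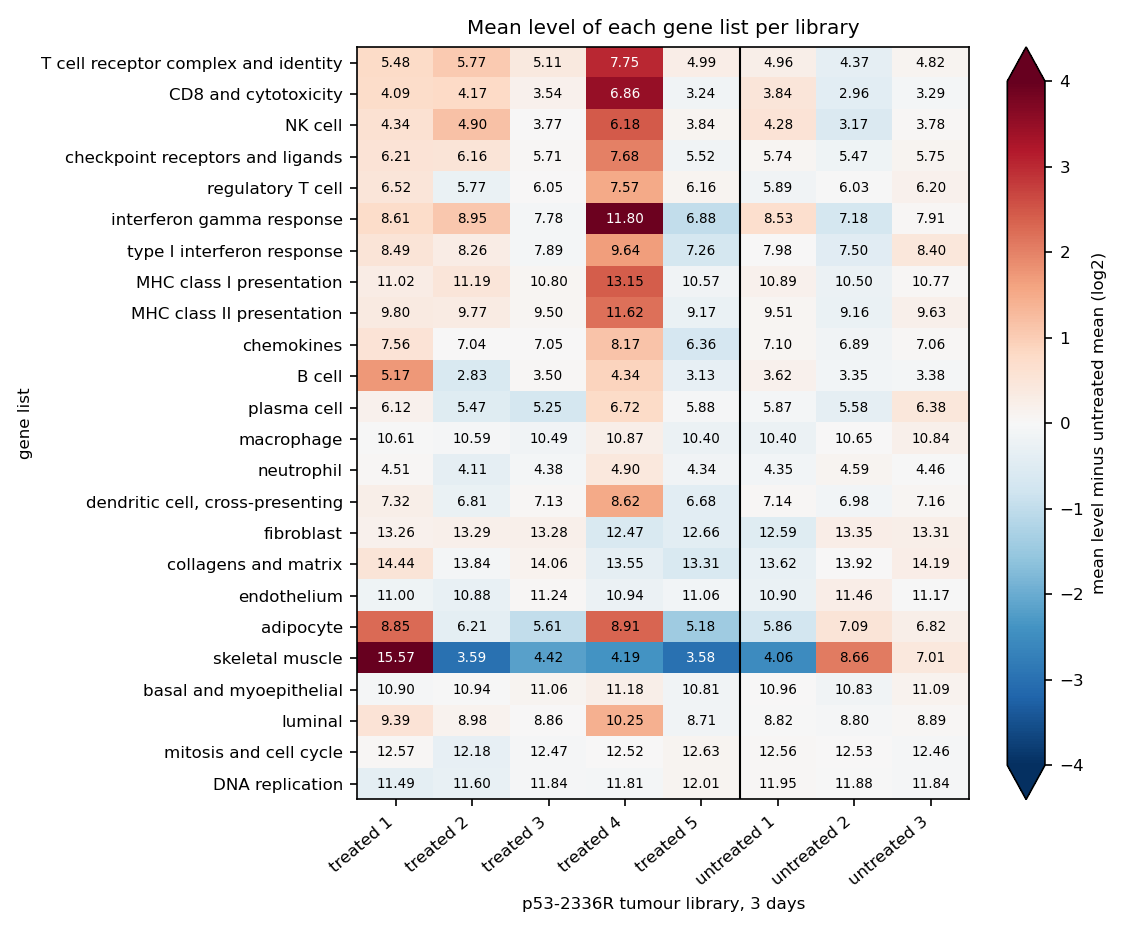
Mean log2(signal + 1) of 24 gene lists in each p53-2336R library at 3 days, treated libraries left of the line and untreated ones right of it. Numbers are the mean levels, and the colour is the level minus the mean of the 3 untreated libraries. Treated library 4 is the darkest red in the T cell, interferon and MHC rows, treated library 1 reaches 15.57 in the skeletal muscle row, and the macrophage, neutrophil and mitosis rows are nearly even.

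The medians of these lists were smaller without library 4. Without it 82 genes had an unadjusted p under 0.05, of which 21 were higher in treated tumours, and 0 were called. The T cell list had a median of 0.58 against -0.12 over all genes, with 14 of 16 members positive and 2 at an unadjusted p under 0.05. The natural killer and the cytotoxicity lists came to 0.50 each. The checkpoint, type I interferon and regulatory T cell lists came to 0.03, 0.02 and 0.02. Lists of other cell types were also high in this library: the adipocyte list was at 8.91 there, against 5.18 to 8.85 in the other treated and 5.86 to 7.09 in the untreated libraries. Markers of lymph node and lymphoid stroma averaged 5.63, 4.64, 5.01, 5.99 and 4.00 in treated libraries, against 4.79, 4.60 and 4.62 in untreated ones. Of 9 tested members of that list 6 had a positive difference, Ccl19 was at 0 in 4 of the 8 libraries, and its part in the T cell values was not tested.

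**Figure D3:**
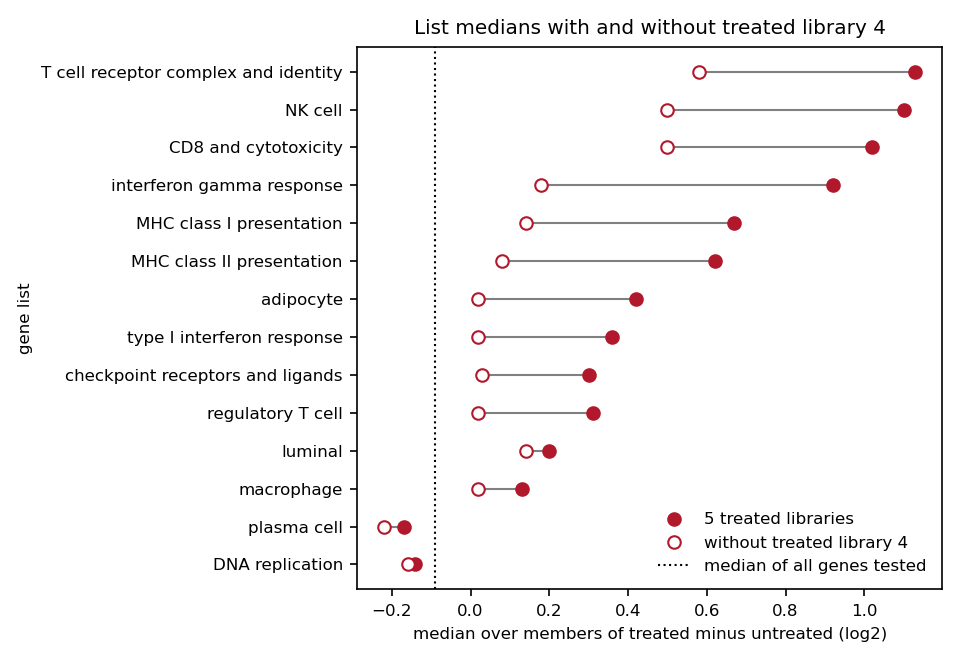
Median over list members of treated minus untreated (log2) with all 5 treated libraries (filled) and without treated library 4 (open), for 14 gene lists. The dotted line is the median of all genes tested, -0.09, and the T cell list goes to 0.58 and the interferon gamma list to 0.18 when library 4 is left out.

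Of the genes of antibody-producing cells, a pair lay lower in treated tumours. Jchain encodes the chain that joins polymeric immunoglobulins and Igkc the constant part of kappa light chains. Jchain was at 6.05, 4.48, 4.56, 5.82 and 5.66 in treated libraries, against 8.29, 6.01 and 7.88 in untreated ones. Only treated library 1 reached the lowest untreated value. The difference was -2.08 ± 0.87, with an unadjusted p of 0.0223, the smallest on the lower side among genes with a known role. Igkc was at 8.02, 6.55, 5.53, 7.38 and 7.58 in treated libraries, against 9.82, 7.30 and 9.08 in untreated ones. Untreated libraries 1 and 3 were high for both genes and untreated library 2 lay within the treated range of Igkc. The values within lanes drew on these high libraries, untreated 3 in lane 3 and untreated 1 in lane 5, and left out untreated library 2. They were -3.32 in lane 3 and -3.80 in lane 5 for Jchain, and -3.55 in lane 3 and -3.27 in lane 5 for Igkc. With weights for library quality, estimated over the 39 libraries, both were called, at -2.71 with an adjusted p of 0.0206 for Jchain and -2.73 with an adjusted p of 0.0363 for Igkc (limma).

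The rest of the plasma cell list was closer to the bulk of genes. The list's median over 10 tested members was -0.17, with 8 negative and 2 positive. Igha, the heavy chain of IgA, was at 4.09, 4.23, 4.83, 7.45 and 4.42 in treated libraries, against 3.13, 3.51 and 4.32 in untreated ones, and differed by 1.35 ± 0.87, and by 0.74 ± 0.85 without library 4. Ighg1 was too low to be tested, at 2.40, 3.02, 2.56, 4.79 and 2.27 in treated libraries, against 0.90, 1.94 and 0 in untreated ones. Ighd, the heavy chain of naive B cells, was at 4.95, 4.70, 3.67, 4.21 and 3.31 in treated libraries, against 2.63, 2.26 and 2.71 in untreated ones. For Ighd and Ighg1 every treated library was the higher. The B cell list was highest in treated library 1, at 5.17.

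Outside the immune groups, some tumour and stromal genes separated the arms, as did 3.17% of all genes downward and 0.454% upward. Dlk1, a non-canonical Notch ligand of progenitor cells, lies at chr12:109452823-109463336 on the plus strand of GRCm38. It was at 8.17, 9.84, 9.24, 8.53 and 9.26 in treated libraries, against 10.10, 10.18 and 10.48 in untreated ones. Every treated tumour was lower, the difference was -1.25 ± 0.54, and the unadjusted p was 0.0281. Adamts1, a secreted protease that cuts proteoglycans, was at 11.73, 11.21, 11.72, 11.63 and 11.98 in treated libraries, against 12.36, 12.96 and 12.24 in untreated ones. Its relative Adamts5 also separated the arms, at 9.15 to 10.04 in treated and 10.11 to 10.40 in untreated libraries. These were the 2 of 17 members of the matrix protease list that did, beside 3.17% of all genes in that direction.

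Keratins of luminal cells lay on the higher side. Krt18 was at 12.55, 12.67, 12.56, 12.58 and 12.52 in treated libraries, against 12.01, 12.37 and 11.98 in untreated ones. The treated values were tightly grouped, with an SD of 0.05. Krt8, its partner in simple epithelial filaments, was at 12.13, 12.25, 12.20, 12.46 and 12 in treated libraries, against 11.79, 12 and 11.90 in untreated ones, with a gap between the arms smaller than the rounding of these values. The differences were 0.45 ± 0.33 for Krt18 and 0.31 ± 0.39 for Krt8, small beside the pooled spread. Krt19 was at 6.65, 4.23, 4.30, 11.14 and 4.23 in treated libraries, against 4.05, 2.52 and 4.00 in untreated ones, and it too separated the arms. Its difference was 2.59 ± 1.31, and 1.33 ± 1.17 without library 4, with an unadjusted p of 0.263. Of 14 luminal genes, 12 were positive, with a median of 0.20, and 3 separated the arms upward, beside 0.454% of all genes. All 14 genes of the mesenchymal transition list had a negative difference, with a median of -0.17, and Vim and Cdh2 separated the arms. Of all 18043 genes 13152 were negative, with a median of -0.09, and 3.17% separated the arms downward. Vim, an intermediate filament, was at 14.73 to 15.13 in treated and 15.17 to 15.32 in untreated libraries.

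**Figure D4:**
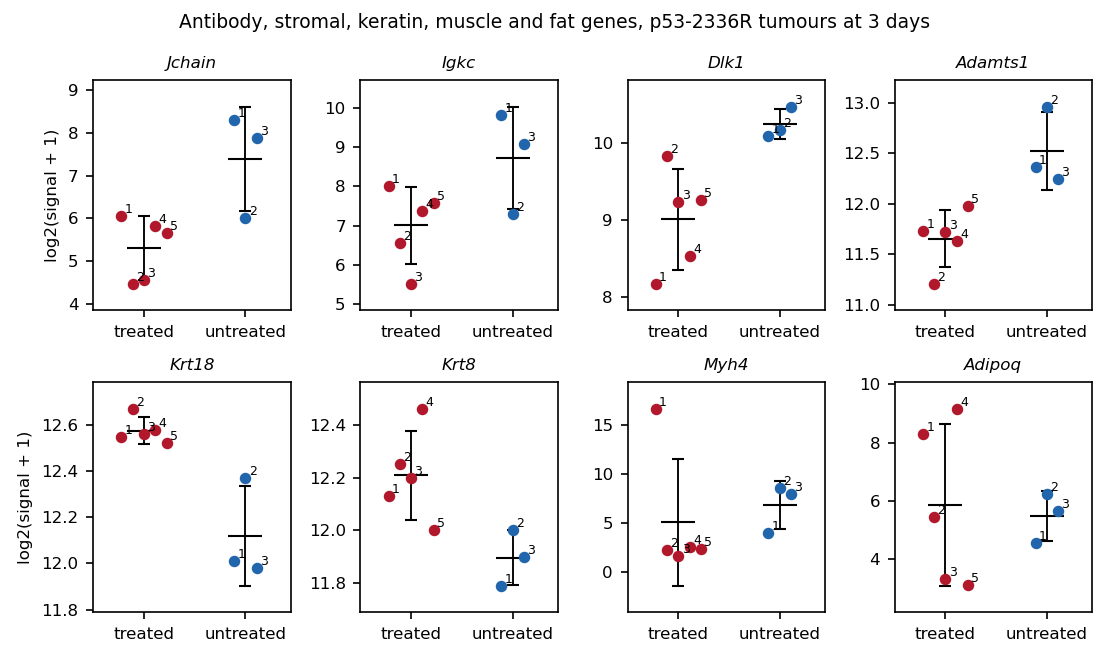
Levels of 8 genes of antibody-producing cells, stroma, luminal epithelium, muscle and fat, as log2(signal + 1), in treated (red, left) and untreated (blue, right) p53-2336R tumours at 3 days. Points are numbered libraries and bars show mean and SD of 5 treated and 3 untreated libraries. Dlk1 and Adamts1 lie lower in each treated library, Krt18 and Krt8 lie higher, and Myh4 reaches 16.70 in treated library 1.

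Myeloid groups showed little difference between the arms. The macrophage list averaged 10.40 to 10.87 in treated and 10.40 to 10.84 in untreated libraries, with a median difference of 0.13 over 13 members. Neutrophil genes had a median of -0.12, and S100a8, an abundant neutrophil protein, was at 2.19 to 3.79 in treated and 2.41 to 3.63 in untreated libraries. Nos2, the inducible nitric oxide synthase, averaged 7.09 ± 0.33 in treated libraries and 7.30 ± 0.11 in untreated ones. Arg1, the arginase of suppressive macrophages, was at 9.08 to 10.13 in treated and 8.88 to 9.60 in untreated libraries. The 95% interval of the Nos2 difference ran from -1.40 to 0.97.

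Growth genes did not separate the arms either. Mki67, a marker of cycling cells, was at 13.61 to 14.13 in treated and 13.79 to 13.91 in untreated libraries, and its difference was 0.01 ± 0.24. The 20 mitosis genes had a median of -0.05. All 18 genes of DNA replication had a difference at or below 0, with a median of -0.14, close to the -0.09 of all genes, and 0 of them separated the arms.

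Muscle and fat varied from tumour to tumour. The skeletal muscle list averaged 15.57, 3.59, 4.42, 4.19 and 3.58 in treated libraries, against 4.06, 8.66 and 7.01 in untreated ones. Myh4, a fast muscle myosin, was at 16.70 in treated library 1, 1.57 to 2.56 in the other treated libraries, and 3.97, 8.59 and 7.92 in untreated ones. Treated library 1 and untreated libraries 2 and 3 thus held muscle transcripts and the others held few. Without treated libraries 1 and 2 together, 55 genes had an unadjusted p under 0.05 and 0 were called.

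Whether the therapy difference in p53-2336R departed from that in other tumours was tested as a difference of differences. The p53-2225L transplant, of the same class and time, had 5 treated and 4 untreated libraries and 5 called genes (0.0277%). By the labels its libraries came from several flow cells, some of which held a single arm, so flow cell and therapy are partly mixed there. Of 18043 genes 0 differed between the models after adjustment (0%), and 433 did at an unadjusted p under 0.05 (2.4%). Pdcd1 differed by 2.09 ± 0.65 in p53-2336R and by -0.12 ± 0.60 in p53-2225L, and the difference between them was 2.21 ± 0.89 with an adjusted p of 1. Igkc differed by -1.72 ± 0.82 in p53-2336R and by 0.74 ± 0.75 in p53-2225L. The hypoxia and glycolysis list had a median of 0.00 in p53-2336R and 1.36 in p53-2225L. Ctla4 gave near-equal values, 1.81 ± 0.80 in p53-2336R and 1.75 ± 0.74 in p53-2225L.

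Against 4 sensitive models, with 15 treated and 17 untreated libraries at 3 days, 0 of 20805 genes differed in their response after adjustment (0%), and 383 had an unadjusted p under 0.05 (1.84%). On their own those models had 2895 called genes (13.9%). By the labels the arms of T11-Apobec lay in separate lanes of 1 flow cell. For KPB25L, 1 flow cell held treated libraries only. Lane or flow cell and therapy are thus partly mixed in the sensitive models. The interferon gamma list had a median of 0.92 in p53-2336R, and 0.18 without treated library 4. In the sensitive models it was 1.13, and 17 of 25 members passed. Class I presentation had 0.67 in p53-2336R, and 0.14 without treated library 4. In the sensitive models it had 0.83, and 12 of 15 passed. The groups were further apart for myeloid genes, with neutrophil medians of -0.12 in p53-2336R and 1.45 in the sensitive models, and monocyte medians of 0.11 in p53-2336R and 1.18 in the sensitive models. Ccl24, a chemokine of alternatively activated macrophages, differed by -0.63 ± 0.64 in p53-2336R and by 2.30 ± 0.57 in the sensitive models, and the difference between them, -2.92 ± 1.30, had an adjusted p of 1. One of the sensitive models, KPB25L-UV, held 1 of 7 libraries with transcripts of another line, at a marker mean of 6.44 where the others reached 3.55 at most. Without that model the sensitive medians were 1.62 for interferon gamma, with 24 of 25 members called beside 29.7% of all genes, 1.15 for class I, 1.39 for neutrophils, 1.46 for monocytes, 0.82 for T cells, with 6 of 16 called, and 1.54 for cytotoxicity, with 9 of 12 called, and 0 genes differed from p53-2336R after adjustment.

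At end stage p53-2336R had 5 treated and 8 untreated libraries, none of them shared with the 3-day comparison. By the labels they came from several flow cells, some of which held untreated libraries only. There 250 of 20805 genes were called (1.2%), 185 of them higher (0.889%) and 65 lower (0.312%). The T cell list had a median of 1.13 at 3 days, 0.58 without library 4, and -0.24 at end stage. The class I list had 0.67 at 3 days, 0.14 without library 4, and 1.13 at end stage. H2-K1 differed by 0.97 ± 0.47 at 3 days, 0.50 ± 0.42 without library 4, and by 1.58 ± 0.37 at end stage, where it was called with an adjusted p of 0.00877 (limma). Krt19 differed by 2.59 ± 1.31 at 3 days, 1.33 ± 1.17 without library 4, and by 5.10 ± 1.46 at end stage, with an adjusted p of 0.051 there. Csf3, the gene of granulocyte colony-stimulating factor, was called at end stage, at 3.42 ± 0.73 with an adjusted p of 0.00388 (limma), while at 3 days it was at 0 to 2.88 in treated and 0 to 2.52 in untreated libraries. Between the times 0 of 20805 genes differed after adjustment (0%), and 536 did at an unadjusted p under 0.05 (2.58%). The smallest adjusted p of that test was 0.0598, for B3gnt7, a glycosyltransferase gene, which differed by 0.09 ± 0.35 at 3 days and by 3.19 ± 0.39 at end stage.

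**Figure D5:**
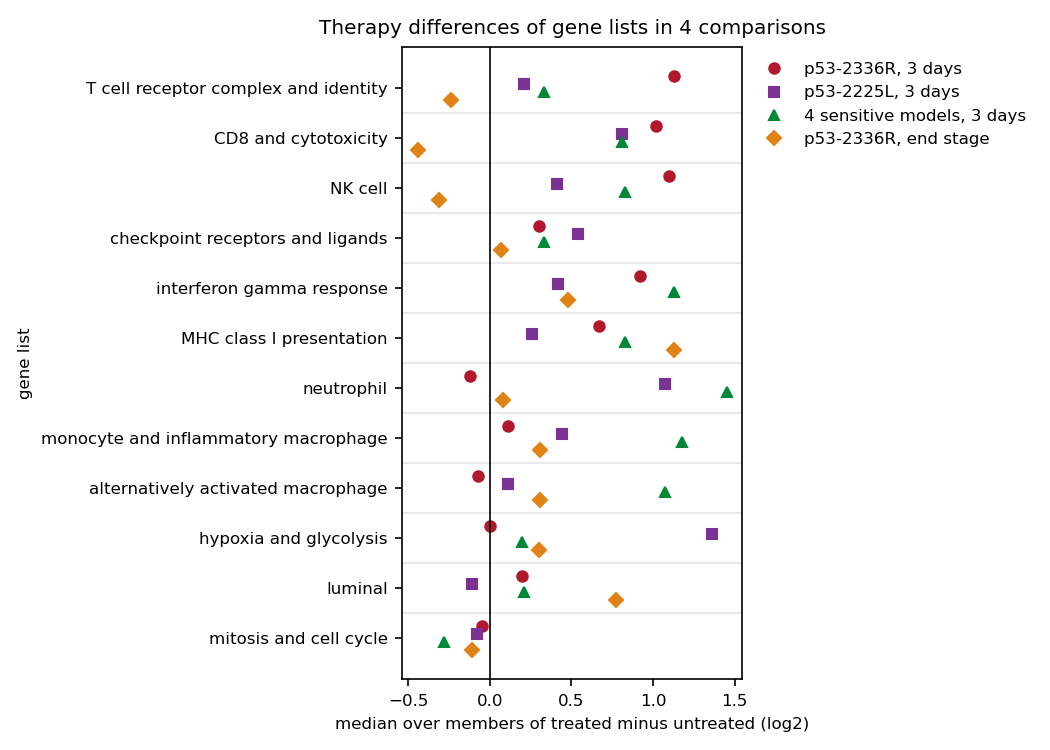
Median over list members of treated minus untreated (log2) for 12 gene lists in p53-2336R at 3 days (red circles), p53-2225L at 3 days (purple squares), 4 sensitive models at 3 days (green triangles) and p53-2336R at end stage (orange diamonds). The T cell list has medians of 1.13 (0.58 without treated library 4), 0.21, 0.33 (0.82 without KPB25L-UV) and -0.24 in that order. The neutrophil list has -0.12, 1.07, 1.45 and 0.08.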

How the data were processed

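RNA was extracted with RNeasy kits, made into TruSeq mRNA libraries and read as 50-base pairs, per the labels' protocols. The submitters' processing notes name STAR, SAMtools, Picard, Salmon and mm10, without versions or settings. The deposited table holds signal values per gene symbol, which the authors scaled to 1 upper quartile, and 69.3 to 75.8% of the values in these libraries come out as whole reads after rescaling (tolerance 0.01 reads), so no count test was used. Of 45724 entries, 39 names turned into dates and 28 repeated entries (0.235 to 0.248% of the signal) were left out, as was 1 column that sums the rows. The 13 exome samples were not analysed here.

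Values were tested as log2(signal + 1) with limma 3.58.1 in R 4.3.3 (a mean-variance trend, Benjamini-Hochberg adjustment, threshold 0.05), after checks on simulated data. Genes above 0 in at least 4 libraries and within the upper 66.7% by mean were tested. The p53-2336R and p53-2225L values come from 39 libraries of resistant tumours at 3 days (29 residual degrees of freedom), and the sensitive and end-stage values, and the differences from them, from 189 libraries in 44 groups, with a spread of their own. All differences of differences share the 8 p53-2336R libraries. Named genes were up to 12 per direction by smallest p with a known role, up to 3 of each list, and a panel, and a few other list members were named after their values were seen. The members and the 52 gene lists were chosen with earlier results of these data known. Replicate numbers follow accession order.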

Additional observations from a re-analysis of the deposited data

Results flagged for a closer look

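Within the 5 treated libraries, the gap between an extreme library and its nearest neighbour was compared with Dixon's 95% value for 5 samples, 0.71 of the range. It was exceeded by 8 of 52 list levels and 23 of 189 genes, where chance gives about 1 in 20 for independent normal values. The items share libraries and members, and many genes were named by smallest p in these libraries. The counts therefore cannot be read against that share. Treated library 4 was the extreme in 16, library 1 in 8, library 5 in 4, library 2 in 2 and library 3 in 1. The causes were not tested.

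Treated library 4 was high for the T cell list, at 7.75 where the other treated libraries were at 4.99 to 5.77, and for the cytotoxicity list, at 6.86 where they were at 3.24 to 4.17. It was at 13.15 for MHC class I (others 10.57 to 11.19) and 11.62 for MHC class II (others 9.17 to 9.80). For a list of Apobec and engineered genes it was at 10.27 (others 9.87 to 9.96, untreated libraries 9.92 to 10.22). Among single T cell genes it was at 7.02 for Zap70, 6.67 for Eomes, 6.70 for Cd3d and 7.41 for Cd3e, where the others reached 5.20, 4.26, 4.34 and 4.30 at most. For presentation and interferon genes it was at 15.34 for H2-K1, 15.53 for H2-D1, 14.52 for H2-Ab1, 12.47 for Psmb9 and 12.04 for Bst2, where the others reached 13.32, 13.63, 12.80, 9.91 and 10.81 at most. It was also at 7.45 for Igha and 13.38 for C1qb, a complement gene of macrophages, where the others reached 4.83 and 12.77.

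Treated library 1 was at 15.57 for the skeletal muscle list (others 3.58 to 4.42) and 11.77 for hypoxia and glycolysis (others 10.98 to 11.18). For matrix proteases it was at 10.24 (others 9.87 to 9.88, untreated libraries 10.06 to 10.27). Its muscle genes Myh4, Mb, Des and Cryab were at 16.70, 13.88, 15.01 and 14.50, where the others reached 2.56, 8.50, 9.42 and 12.10 at most. Hk2, a hexokinase gene, was at 11.33 there, against 9.56 to 9.93 in the others.

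Treated library 5 was low for the mast cell proteases Cma1, at 6.01 (others 8.07 to 8.53), and Mcpt4, at 6.55 (others 8.38 to 8.95). It was also low for Nos2, at 6.51 (others 7.12 to 7.35), and for the endothelial receptor gene Tek, at 9.08 (others 9.71 to 9.86). Treated library 2, the shallowest, was at 0 for Il6 (others 2.98 to 3.48) and at 11.55 for Foxm1 (others 11.81 to 11.89). Hoxb13 was at 1.57 in treated library 3, at 0 in the other treated libraries and at 0.96 to 1.84 in untreated ones.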

How the results depend on the processing

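The count of 0 called genes for therapy in p53-2336R at 3 days became 16 with no filter on low values, all lower, with fitted-library means under 1, and 16 with library weights, Jchain and Igkc among them. It was 0 under each other alternative run, leave-one-out included, and with library weights from the 8 libraries alone, which was chosen after seeing the data. Under library weights Hrh2 (2.21), Avpr2 (2.12), Jchain (-2.71) and Igkc (-2.73) passed the threshold. Against p53-2225L the count of 0 became 2 with no filter, and 0 to 1 when libraries were left out, with 1 without p53-2225L treated library 1. Against the sensitive models it became 63 with no filter and 0 with each library left out. Between 3 days and end stage it became 4 with a pseudocount of 16, 116 with no filter, and 0 to 4 when libraries were left out: 1 without 3-day treated library 4, 4, 1 and 3 without end-stage treated libraries 2, 3 and 4, and 1, 2 and 1 without end-stage untreated libraries 4, 7 and 8. The cause was not tested. No named value changed sign while called. Scaling by median of ratios moved the median of all genes by 0.07. No paired analysis was possible because the labels of these libraries carry no replicate numbers. Ifng fell under the filter on means of the 39 libraries, and in the fit of 189 libraries it differed from the sensitive models by -0.70 ± 1.27, with an adjusted p of 1 (limma).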

Other observations

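Gm26882, a long intergenic noncoding RNA gene at chr9:90094178-90095902 on the plus strand of GRCm38, was singled out after its values were seen. It was listed at 0 in all 5 treated libraries and was at 5.27, 5.65 and 5.70 in the untreated ones. It was the 1 gene of the table near 0 (under 0.05) in every treated library and above 2 in every untreated one, and 0 genes had the opposite layout. Its unadjusted p, 0.0012, was the smallest of the 18043 genes tested, with an adjusted p of 1 (limma). The gene was near 0 in 84 of the 264 libraries, among them 1 of 5 treated and 1 of 4 untreated p53-2225L tumours at 3 days. At end stage in p53-2336R it was near 0 in 0 of 5 treated tumours, which were at 4.15 to 5.73, and in 4 of 8 untreated ones.

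Some epithelial genes were also high in treated library 4. Areg, an EGF receptor ligand, was at 8.15 there, 0 to 0.99 in the other treated libraries and 0.90 to 1.53 in untreated ones. Foxa1, a luminal transcription factor, was at 7.88 there, 5.09 to 6.18 in the other treated libraries and 5.16 to 5.29 in untreated ones. Sprr1a, a cornified envelope gene, was at 7.04 there, 0 to 4.00 in the other treated libraries and 0.84 to 1.45 in untreated ones.

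Mast cell genes beyond the proteases were low in treated library 5. Cpa3, a mast cell carboxypeptidase, was at 6.01 there, 7.88 to 8.80 in the other treated libraries and 7.74 to 8.51 in untreated ones. Fcer1a, a chain of the IgE receptor, was at 1.18 there, 3.56 to 5.31 in the other treated libraries and 4.01 to 5.16 in untreated ones.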
